A study of Homo sapiens with 12 samples.

Results

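The 10 genes of cystine uptake, glutathione synthesis and the NRF2 response were followed through 4 groups of leukaemia cell libraries. They were chosen by symbol from the raw count table, which lists 59611 symbols: SLC7A11, SLC3A2, GCLC, GCLM, GPX4, TXNRD1, SRXN1, HMOX1, NQO1 and NFE2L2. All 10 symbols were in the table, and 8 of them had enough counts to be tested. HMOX1 and SRXN1 did not, and are given by their counts alone.

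The cells were 697 and KOPN-8, both established human B-lineage acute lymphoblastic leukaemia lines grown in RPMI medium with serum and antibiotics. For each line, 3 libraries came from cells given an empty guide RNA vector and labelled wild type for SETD2, here called control. Another 3 came from 1 clone made with a SETD2 guide RNA and labelled as a heterozygous SETD2 knockout, here called edited (clone BM_B in 697, clone BA in KOPN-8). SETD2 is the enzyme that trimethylates histone H3 in the body of active genes. With 1 clone per line, the edit cannot be told apart from other differences between that clone and its control, and whether a control was itself a clone is not labelled.

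The amino acid cystine, the oxidized dimer of cysteine, enters cells through the xCT exchanger, in which SLC7A11 is the transporting chain and SLC3A2 the shared heavy chain that carries it to the membrane. Inside the cell it is reduced to cysteine, which glutamate-cysteine ligase (catalytic subunit GCLC, modifier subunit GCLM) joins to glutamate in the first step of glutathione synthesis. GPX4 uses glutathione to reduce lipid peroxides, and lymphoid leukaemia cells are known for depending on cystine or cysteine from outside. NRF2, encoded by NFE2L2, is a transcription factor held low by KEAP1 and released under oxidative stress. Its known targets include SLC7A11, GCLC, GCLM, TXNRD1, SRXN1, HMOX1 and NQO1.

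Libraries held 10378769 to 18278662 counts each. HOXA9, a target of KMT2A fusions such as that of KOPN-8, had 0 counts in 697 and a mean of 147 CPM (counts scaled to a common library size) in control KOPN-8. All 8 B-lineage markers checked (CD79A among them) were at 1 CPM or more in every group, with sums of 1950 to 2160 CPM in control and 1970 to 2110 CPM in edited 697, and of 2810 to 2900 CPM in control and 3390 to 3490 CPM in edited KOPN-8. The 7 erythroid markers summed to at most 0.0654 CPM in any library, and the 7 T cell markers to at most 0.221 CPM in 697 and 25.6 CPM in KOPN-8. Myeloid markers summed to 0.883 to 2.18 CPM in 697 and 38.5 to 49.2 CPM in KOPN-8, where CD33 made up most of the sum (46.2 CPM in the controls against 37.8 CPM in the edited clone). SETD2 mRNA was called higher in edited 697 (log2 fold change 0.44) and was not called in KOPN-8 (-0.10), and its counts do not check the genotype label. The part of the marker sums in the results was not tested, and a change in the share of cells that hold an mRNA and one in its amount per cell cannot be told apart.

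The level of each gene is given first, as RPKM, so that genes can be set side by side. RPKM is CPM divided by exon length in kilobases, taken over the union of all annotated exons in GENCODE release 29. The lengths of the transcripts these cells made were not measured, so levels and ratios between genes depend on the annotation. GPX4 was the highest of the 10 in all 4 groups, at 67.3 ± 7.20 RPKM (SD, n = 3) in control 697 and 48.1 ± 2.74 RPKM in control KOPN-8. TXNRD1, the cytosolic thioredoxin reductase, came next at 36.5 ± 2.17 and 30.3 ± 1.46 RPKM, then SLC3A2 at 17.0 ± 2.09 and 24.4 ± 1.88 RPKM and NFE2L2 at 8.17 ± 0.641 and 16.3 ± 0.662 RPKM. These leading genes did not overlap their neighbours in the order beyond their SDs in either control. GCLC and GCLM lay close together in control 697, at 5.27 ± 0.371 and 4.74 ± 0.427 RPKM, and their intervals of 1 SD touched. The cystine transporter SLC7A11 was low in both controls, at 0.710 ± 0.216 RPKM in 697 and 0.139 ± 0.0839 RPKM in KOPN-8. NQO1 changed place most: it was below SLC7A11 in both 697 groups, at 0.392 ± 0.0666 RPKM in the control, and above GCLM and GCLC in control KOPN-8, at 4.06 ± 0.179 against 2.85 ± 0.354 and 2.19 ± 0.0357 RPKM. In edited KOPN-8 GCLM (4.90 ± 0.338 RPKM) and NQO1 (4.47 ± 0.658 RPKM) lay within 1 SD of each other, above GCLC (3.49 ± 0.0227 RPKM).

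Because of that low level, the transporter chain rather than its partner was the scarcer mRNA in each library. Per length, SLC3A2 exceeded SLC7A11 by 21.2, 32.1 and 22.0 times in the control 697 libraries and by 162, 461 and 121 times in control KOPN-8. Among the edited 697 libraries the ratio was 7.35, 6.33 and 6.75, below every control library. Edited KOPN-8 had ratios of 97.0, 106 and 72.7, also below its controls, although SLC7A11 rests there on only 25 to 63 counts a library. SLC3A2 also serves other amino acid transporters, so its excess over SLC7A11 covers more than cystine uptake.

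**Figure D1:**
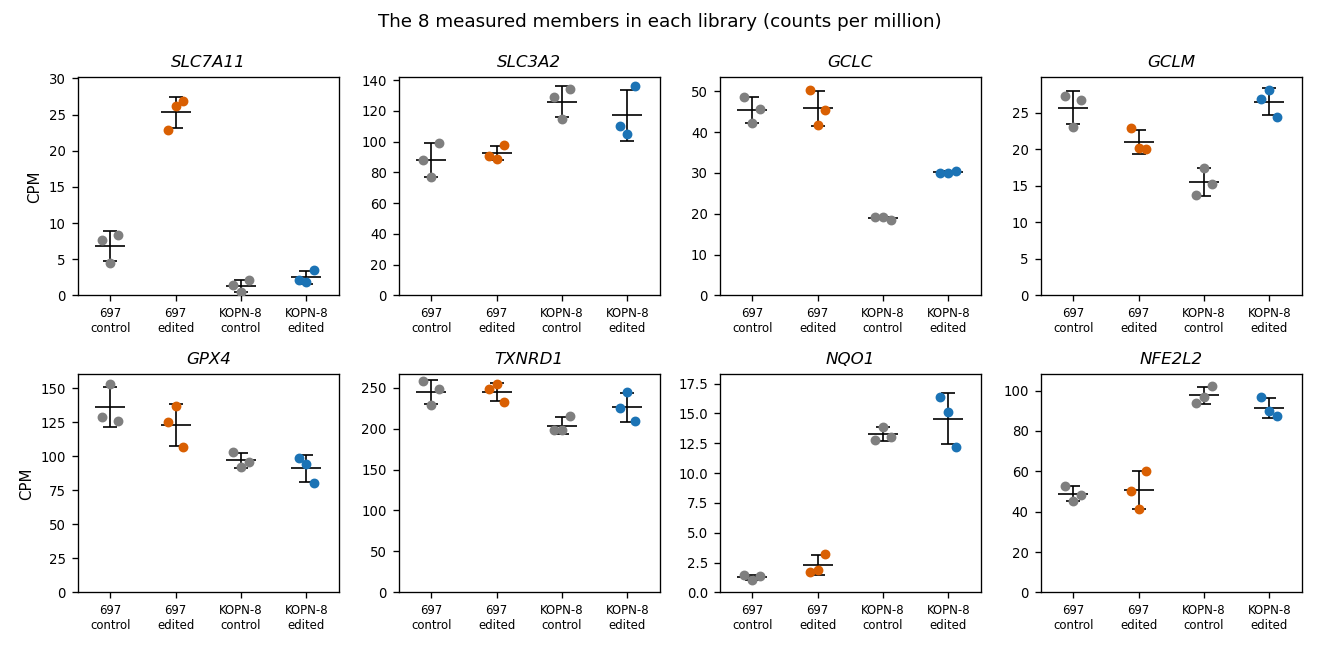
CPM (vertical axes, starting at 0) of the 8 members with enough counts to be tested, 1 panel per gene, in control (grey) and edited (orange, 697; blue, KOPN-8) libraries. Points are libraries, long bars are means and whiskers are SDs (n = 3); SLC7A11 stands apart in edited 697, and GCLC and GCLM in edited KOPN-8.

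The unedited lines differed in every tested member. Between control KOPN-8 and control 697, 8 of 8 were called (edgeR quasi-likelihood, adjusted p under 0.05), 3 higher and 5 lower in KOPN-8. The background was high, since 73.3% of all 15218 genes tested were called in this comparison, 36.6% higher and 36.7% lower. NQO1, a quinone reductase and a standard readout of NRF2 activity, had 1.44, 1.03 and 1.36 CPM in control 697 and 12.8, 13.9 and 13.0 CPM in control KOPN-8. It was 10.4-fold higher in KOPN-8 (log2 fold change 3.38, SE 0.206, adjusted p = 2.86e-13). NFE2L2 itself had 52.9, 45.3 and 48.4 CPM in 697 and 93.9, 97.0 and 102 CPM in KOPN-8, a log2 fold change of 1.00 (SE 0.0960, adjusted p = 2.58e-09). Genes that share exon bases with NFE2L2 differed as well. AGPS, on the opposite strand, had 26 counts in control 697 and 13103 in control KOPN-8, and AC019080.1, on the same strand, had 0 and 231. The part of these overlaps in the NFE2L2 difference was not tested. SLC3A2 was the third gene higher in KOPN-8 (0.52, SE 0.0957, adjusted p = 4.81e-05).

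The glutathione synthesis genes went the other way between the lines. GCLC had 48.7, 42.3 and 45.6 CPM in control 697 against 19.1, 19.2 and 18.6 CPM in control KOPN-8, 2.40-fold lower in the latter (log2 fold change -1.27, SE 0.0883, adjusted p = 3.69e-12). GCLM was lower in KOPN-8 by a log2 fold change of -0.73 (SE 0.109, adjusted p = 2.11e-06), SLC7A11 by -2.33 (SE 0.361, adjusted p = 3.28e-05), GPX4 by -0.49 and TXNRD1 by -0.27. The line with more NFE2L2 and NQO1 mRNA was thus the line with less GCLC, GCLM, SLC7A11 and TXNRD1 mRNA. The subunits of the ligase also stood in another proportion: per length, GCLC over GCLM was 1.12, 1.15 and 1.07 in control 697 and 0.876, 0.687 and 0.763 in control KOPN-8.

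The comparison of edited with control 697 asks what differs between 1 SETD2-edited clone and its empty-vector control. Of the 8 members tested, 1 rose and 0 fell, against 9.45% of all genes called (4.85% higher, 4.6% lower), so the share of members called, 12.5%, was near the background. The median log2 fold change of the 8 was 0.03, and that of all genes tested 0.00. The gene that rose was SLC7A11. This test did not pair libraries by replicate number. With that pairing 2 members rose and 1 fell, among 2319 genes called in all.

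SLC7A11 had 7.72, 4.48 and 8.36 CPM in the control 697 libraries and 22.9, 26.2 and 26.9 CPM in the edited ones. The groups did not overlap, and the lowest edited library lay far above the highest control. The change was 3.73-fold (log2 fold change 1.90, SE 0.258, adjusted p = 0.00018), and it was called under all 13 alternatives, with values of 1.66 to 2.06. By size it ranked 81 of the 738 genes called higher in 697. Its antisense neighbour SLC7A11-AS1, which shares 8.97% of its exon bases on the other strand, had 1 count in the 3 controls and 9 in the 3 edited libraries.

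Its partner and the enzymes downstream did not pass the test in 697. SLC3A2 had 88.0, 77.1 and 98.8 CPM in controls against 90.4, 89.0 and 97.5 CPM in edited libraries, so the groups overlapped (log2 fold change 0.07, SE 0.0975, adjusted p = 0.740). GCLC had 48.7, 42.3 and 45.6 CPM against 50.3, 41.7 and 45.5 CPM, with overlap again (0.01, SE 0.0839, adjusted p = 0.981). GPX4 (129, 153 and 126 against 125, 137 and 107 CPM) and TXNRD1 (258, 229 and 248 against 248, 254 and 233 CPM) overlapped as well, with log2 fold changes of -0.14 (SE 0.0930) and 0.00 (SE 0.0702). The xCT exchanger thus differed in its transporter chain and not detectably in its heavy chain.

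GCLM and NQO1 lay at the edge of a call in 697. GCLM had 27.3, 23.1 and 26.8 CPM in controls against 22.9, 20.2 and 20.0 CPM in edited libraries, every edited library below every control. Its log2 fold change was -0.29 (SE 0.108, adjusted p = 0.105), and with 697 libraries paired by replicate number the adjusted p was 0.0384. NQO1, low in this line at 17 to 33 counts a library, had 1.44, 1.03 and 1.36 CPM against 1.71, 1.84 and 3.22 CPM. The edited libraries were all higher, most of all replicate 3 (0.79, SE 0.277, adjusted p = 0.0784, or 0.0427 with the replicate block). With that pairing 3 members were called, SLC7A11 and NQO1 higher and GCLM lower, out of 2319 genes in all. NQO1 shares 17.7% of its exon bases with AC092115.2 on the opposite strand. That neighbour had 59 counts in control and 48 in edited 697 libraries, against 57 and 81 for NQO1. The part of this overlap in the NQO1 values was not tested. Per length, GCLC over GCLM was 1.12, 1.15 and 1.07 in the controls and 1.38, 1.30 and 1.43 in the edited libraries, without overlap; no test was made of this ratio.

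NFE2L2 mRNA was not called in 697, at 52.9, 45.3 and 48.4 CPM in controls against 50.0, 41.4 and 60.2 CPM in edited libraries (0.04, SE 0.0998, adjusted p = 0.867). On the opposite strand its exons share 54 bases with AGPS, an enzyme gene of ether lipid synthesis that went from 26 counts in the 3 control libraries to 1802 in the 3 edited ones. A further 17.6% of NFE2L2's exon bases lie in AC019080.1 on its own strand, which had 0 counts in controls and 24 in edited 697 libraries. The part of these overlaps in the NFE2L2 values was not tested.

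**Figure D2:**
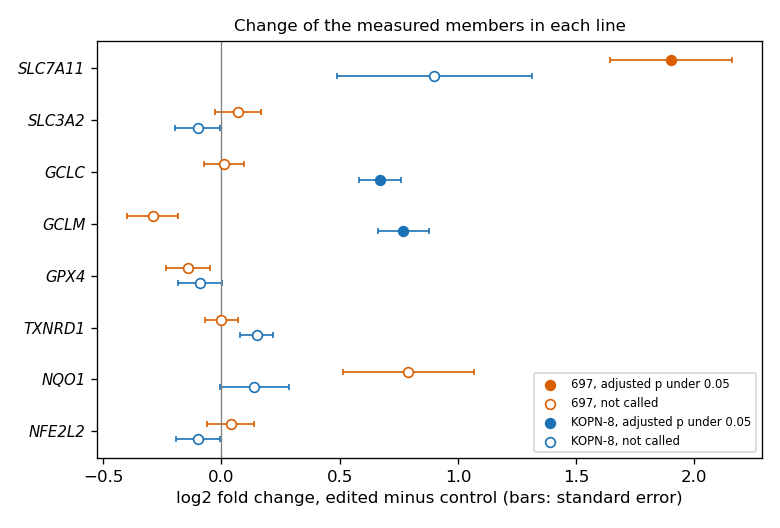
Log2 fold change of edited against control libraries (horizontal axis) for the 8 tested members in 697 (orange) and KOPN-8 (blue). Filled points passed an adjusted p under 0.05, open points did not, and bars are standard errors; only SLC7A11 is filled in 697, at 1.90, and only GCLC (0.67) and GCLM (0.77) in KOPN-8.

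In KOPN-8 the ligase genes were called and the transporter was not. Of 8 members tested, 2 rose, GCLC and GCLM, and 0 fell. The background there was 28.7% of genes called (11.5% higher, 17.2% lower), so the share of members called, 25%, did not exceed it. The members' median log2 fold change was 0.14, against 0.00 for all genes tested.

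GCLC, the catalytic subunit, had 19.1, 19.2 and 18.6 CPM in control against 30.1, 30.1 and 30.4 CPM in edited KOPN-8 libraries. The libraries of each group lay within 1 CPM of each other, and the groups stood well apart. The change was 1.59-fold (log2 fold change 0.67, SE 0.0895, adjusted p = 2.27e-06). GCLM, the modifier subunit, had 13.7, 17.5 and 15.3 CPM against 26.9, 28.2 and 24.5 CPM, again without overlap, a change of 1.71-fold (0.77, SE 0.108, adjusted p = 4.56e-06). Both were called under all 13 alternatives, GCLC at 0.66 to 0.69 and GCLM at 0.69 to 0.87. After this rise GCLM stood at 26.5 ± 1.83 CPM, close to the 25.7 ± 2.31 CPM of control 697, whereas GCLC at 30.2 ± 0.196 CPM remained below the 45.6 ± 3.21 CPM there. Per length, GCLC over GCLM was 0.701, 0.669 and 0.777 in edited KOPN-8 libraries, overlapping the controls.

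The starts of GCLC and GCLM are shown because these were the members that rose together. Each sequence runs from 250 bases before to 50 bases after the RefSeq gene start, from GRCh38.p14 and on the gene's own strand. GCLC lies at chr6:53545052-53545351, GCLM at chr1:93909381-93909680 and TXNRD1, which was not called in either line, at chr12:104215529-104215828; the first pair are on the minus strand and TXNRD1 is on the plus strand. Capitals mark the core of the antioxidant response element, TGACNNNGC on either strand, to which NRF2 binds with a small MAF protein.
GCLC: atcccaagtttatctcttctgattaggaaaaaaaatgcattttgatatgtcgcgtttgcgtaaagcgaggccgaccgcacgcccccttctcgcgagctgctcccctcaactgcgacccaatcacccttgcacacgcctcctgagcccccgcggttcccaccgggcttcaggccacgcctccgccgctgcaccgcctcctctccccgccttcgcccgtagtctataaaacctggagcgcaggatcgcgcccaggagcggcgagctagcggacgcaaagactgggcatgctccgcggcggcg
GCLM: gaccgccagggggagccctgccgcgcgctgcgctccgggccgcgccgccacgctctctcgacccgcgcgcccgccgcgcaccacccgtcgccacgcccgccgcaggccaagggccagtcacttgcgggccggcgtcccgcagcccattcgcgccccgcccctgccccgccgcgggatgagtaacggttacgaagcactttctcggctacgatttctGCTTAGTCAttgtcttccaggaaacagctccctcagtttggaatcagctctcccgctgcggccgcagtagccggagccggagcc
TXNRD1: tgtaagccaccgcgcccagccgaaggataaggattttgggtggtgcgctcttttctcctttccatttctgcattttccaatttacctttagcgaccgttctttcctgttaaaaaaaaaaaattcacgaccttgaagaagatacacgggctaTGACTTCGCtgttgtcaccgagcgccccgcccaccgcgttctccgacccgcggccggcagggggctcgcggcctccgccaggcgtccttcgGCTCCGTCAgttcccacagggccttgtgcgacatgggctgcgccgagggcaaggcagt
GCLM has 1 match, beginning at position -34 from the gene start, TXNRD1 has 2, at -99 and -8, and GCLC has none in this window. SLC3A2, not printed, has 1 at -37. The table held promoters for 8 of the 10 members, not SLC7A11 and HMOX1, and 3 of the 8 had a match, against 13.3% of all 35116 promoters of 300 bases in the table. The longer CNC-MAF element, which can overlap the core, matched none of the 8 (0.416% of all promoters), and the C/EBP-ATF core TGATGNAA, searched on both strands, matched SLC3A2 alone (3.62% of all). A match describes letters only. Each gene has 1 reference start here, and whether these cells used it was not tested.

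SLC7A11 was scarce in KOPN-8 and its change there was uncertain. It had 1.48, 0.466 and 2.07 CPM in control libraries, from 20, 8 and 38 counts, and 2.12, 1.84 and 3.49 CPM in edited ones, from 40, 25 and 63 counts. The groups overlapped. The log2 fold change was 0.90 (SE 0.413, adjusted p = 0.123). It moved to 0.48 (adjusted p = 0.357) without control replicate 2 and to 1.44 (adjusted p = 0.0309) without control replicate 3. Without edited replicate 3 it was 0.57 (adjusted p = 0.407). SLC7A11 passed the threshold with the replicate block and with no low-count filter.

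The remaining members were not called in KOPN-8. SLC3A2 had 129, 115 and 134 CPM in the controls against 110, 105 and 136 CPM in the edited clone (-0.10, SE 0.0944). GPX4 had 103, 92.2 and 95.8 CPM against 99.0, 94.0 and 80.1 CPM (-0.09, SE 0.0937). All these groups overlapped, as did those of TXNRD1, at 198, 198 and 215 CPM against 225, 244 and 209 CPM (0.15, SE 0.0701, adjusted p = 0.118). TXNRD1 passed the threshold without edited replicate 3 (0.20, adjusted p = 0.0473). NQO1 had 12.8, 13.9 and 13.0 CPM against 16.4, 15.1 and 12.2 CPM (0.14, SE 0.146), and NFE2L2 93.9, 97.0 and 102 CPM against 96.7, 89.8 and 87.4 CPM (-0.10, SE 0.0925). So neither NQO1 nor NFE2L2 mRNA passed the test in the line where the ligase genes rose.

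Tested directly, the change differed between the lines for GCLC and GCLM and for no other member. KOPN-8 minus 697 was 0.66 for GCLC (SE 0.123, adjusted p = 0.000286) and 1.06 for GCLM (SE 0.153, adjusted p = 1.35e-05), where 19.5% of all genes were called (7.46% higher, 12.1% lower). For SLC7A11 it was -0.99 (SE 0.502, adjusted p = 0.204), so a difference between the lines was not shown for the transporter. Without control KOPN-8 replicate 2 that value was -1.42 (adjusted p = 0.0174), and without control KOPN-8 replicate 3 it was -0.45. The lines' controls are separate libraries.

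SRXN1 and HMOX1 were nearly without counts. SRXN1, which encodes the sulfiredoxin that repairs peroxiredoxins, had 5 counts in edited KOPN-8 replicate 1 and 0 in the other 11 libraries. Of its exon bases, 85.0% also belong to AL121758.1, a protein-coding gene annotated on the same strand, which is listed at 0 in all 12 libraries. How the authors' counting treated reads that fit both genes is not given in the sources used here, and its part in the low counts of SRXN1 was not tested. HMOX1, haem oxygenase 1, has no such overlap and had 1 count in control KOPN-8 replicate 1, 1 in edited KOPN-8 replicate 3 and 0 elsewhere. A total of 0 in 3 libraries allows up to 3 counts, or 0.0665 CPM in the control group of 697 and 0.0805 CPM in its edited group.

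Around the members, the genes that supply cysteine and regenerate glutathione included CTH and DPEP1, which rose in edited 697 and fell in edited KOPN-8. Of 13 measured genes of this list, 2 rose and 0 fell in 697, and 0 rose and 3 fell in KOPN-8. As shares, 15.4% and 23.1% were called, against 9.45% and 28.7% of all genes. CTH, cystathionine gamma-lyase, which makes cysteine from cystathionine inside the cell, had 1.57, 1.94 and 2.41 CPM in control against 8.41, 8.54 and 10.7 CPM in edited 697 (log2 fold change 2.22, SE 0.183, adjusted p = 4.35e-09). In KOPN-8 it had 8.53, 8.62 and 8.59 CPM in the controls against 5.41, 5.15 and 4.88 CPM in the edited clone (-0.74, SE 0.153, adjusted p = 0.000615). Neither line's groups overlapped, and the changes differed by -2.96 (SE 0.240, adjusted p = 1.8e-09). Edited 697 was thus higher in the mRNA of both SLC7A11, for cystine import, and CTH, for synthesis of cysteine within the cell. Neither import nor synthesis was measured.

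DPEP1, a membrane dipeptidase that cleaves the cysteinylglycine left from glutathione, followed the same directions. It went from 2.61 ± 0.899 to 6.92 ± 1.35 CPM (SD, n = 3) in 697 and from 4.74 ± 0.465 to 2.21 ± 0.0736 CPM in KOPN-8, log2 fold changes of 1.40 (adjusted p = 0.000111) and -1.09 (adjusted p = 0.000641). GSR, glutathione reductase, was not called in 697 (0.07) and fell in KOPN-8 from 152, 143 and 136 to 105, 99.3 and 94.9 CPM (-0.53, SE 0.0774, adjusted p = 9.29e-06). GSR lies on chromosome 8, where 301 of 512 genes tested fell and 25 rose in KOPN-8 (median -0.52), and their part in its value was not tested. CTH lies on chromosome 1 and DPEP1 on 16, and none of the 10 members lies on chromosome 8 or 13. Changes over the chromosomes that hold CTH, DPEP1 and the members were not counted. GSS, which completes glutathione synthesis, was called in neither line (-0.14 and -0.06), nor was CBS, the enzyme before CTH (-0.19 and -0.50).

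**Figure D3:**
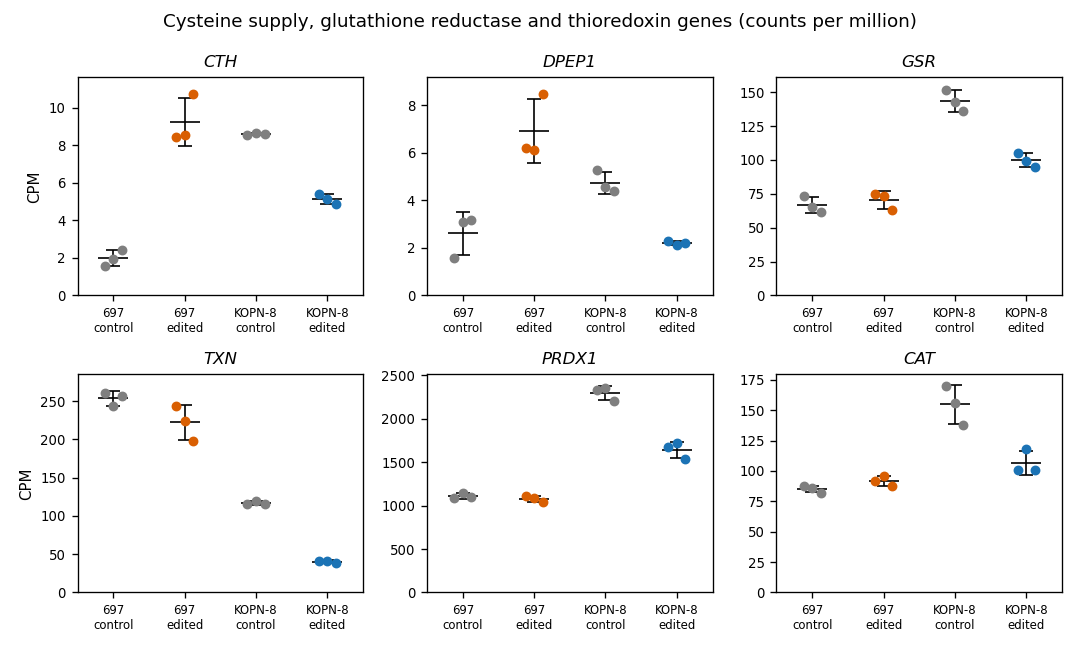
CPM (vertical axes, starting at 0) of CTH, DPEP1, GSR, TXN, PRDX1 and CAT in control (grey) and edited (orange, 697; blue, KOPN-8) libraries, with points for libraries, long bars for means and whiskers for SDs (n = 3). CTH and DPEP1 were higher in edited 697 and lower in edited KOPN-8, while the other 4 were lower in edited KOPN-8 and not called in 697.

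Thioredoxins, the other main thiol reductants of the cell, were counted in 1 list with peroxiredoxins, sestrins, catalase and superoxide dismutases. In edited KOPN-8, of its 16 measured genes, which do not include TXNRD1, 0 rose and 11 fell, 68.8%, against 17.2% of all genes called lower (median log2 fold change -0.30). TXN, thioredoxin 1 and the main substrate of TXNRD1, had 115, 120 and 116 CPM in the controls against 41.1, 41.0 and 38.2 CPM in the edited clone. The groups stood far apart, with a log2 fold change of -1.54 (SE 0.0758, adjusted p = 1.15e-13), while TXNRD1 mRNA was not called. SESN1, a sestrin and p53 target, fell from 86.6 ± 8.27 to 44.4 ± 3.64 CPM (SD, n = 3; -0.97) and CAT, catalase, from 155 ± 16.0 to 107 ± 9.84 CPM (-0.54).

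Peroxiredoxins, the peroxidases that thioredoxin recharges, were part of that fall. PRDX1 had 2330, 2360 and 2210 CPM in control against 1670, 1720 and 1540 CPM in the edited clone (-0.49, SE 0.0676, adjusted p = 4.47e-06), PRDX4 fell by 0.48 on the log2 scale, PRDX2 by 0.27 and PRDX3 by 0.23. PRDX5 (-0.17) and PRDX6 (-0.14) were not called. TXN2 and TXNRD2, the mitochondrial pair, fell by 0.21 and 0.33, SESN3 by 0.34 and SOD1 by 0.27. Single libraries carried part of the count: 6 genes were called without control replicate 2 and 5 without edited replicate 3. TXN, PRDX1, PRDX4, SESN1 and CAT were called under all 13 alternatives. PRDX1 to PRDX4, TXN2, TXNRD2, SESN3 and SOD1 were named after their values were seen.

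In 697 none of the same 16 genes was called (median -0.04), with 3 lower when libraries were paired by replicate number, 2 lower without edited replicate 1 and 1 lower without control replicate 2. TXN had 253 ± 9.28 CPM in control against 222 ± 22.8 CPM in edited 697 libraries (SD, n = 3; log2 fold change -0.19, adjusted p = 0.0914). The change of TXN differed between the lines by -1.35 (SE 0.103, adjusted p = 5.99e-10), that of SESN1 by -1.13 and that of CAT by -0.64. In edited KOPN-8, then, the ligase genes GCLC and GCLM were higher while TXN, PRDX1 and CAT were lower.

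**Figure D4:**
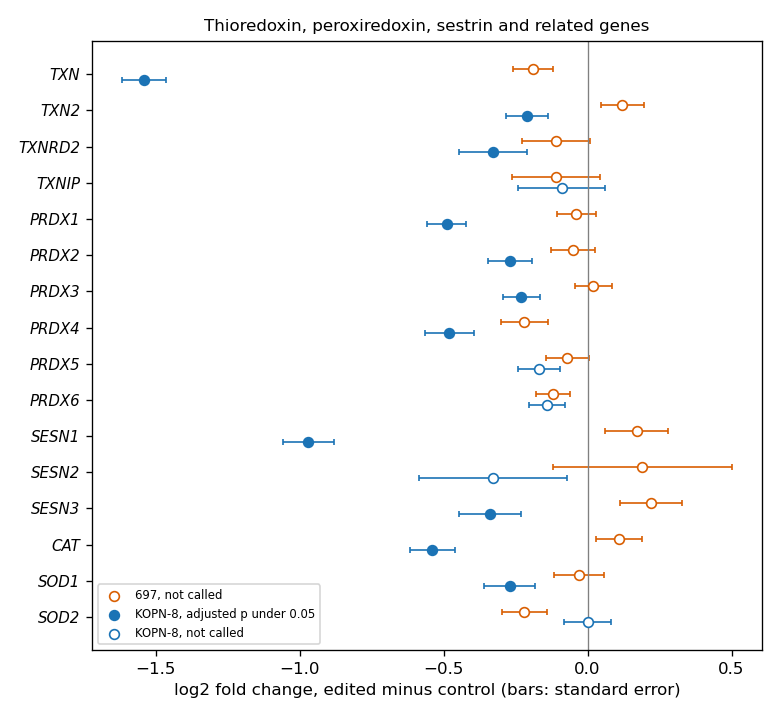
Log2 fold change of edited against control libraries (horizontal axis, bars are standard errors) for 16 genes of the thioredoxin, peroxiredoxin, sestrin, catalase and superoxide dismutase group, in 697 (orange) and KOPN-8 (blue). Filled points, which passed an adjusted p under 0.05, are the 11 genes lower in KOPN-8, with TXN lowest at -1.54; every 697 point is open.

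Glutathione peroxidases other than GPX4, glutathione transferases and glutaredoxins formed another list. Of 14 measured, none was called in 697 (1 lower with the replicate block and 1 lower without control replicate 1), and 1 rose and 3 fell in KOPN-8, a share of 28.6% against 28.7% of all genes. MGST3, a microsomal glutathione transferase, fell there from 16.0 ± 0.218 to 10.8 ± 0.705 CPM (SD, n = 3; -0.56, adjusted p = 0.000295). GPX1 (-0.29), GSTO1 (-0.21) and, higher, GPX7 (0.32) had smaller changes. Leaving out control replicate 1, edited replicate 1 or edited replicate 3 lowered the KOPN-8 count to 2.

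Partners and regulators of NRF2 were called in both directions. The shares called, 5.56% in 697 and 38.9% in KOPN-8, stood beside 9.45% and 28.7% of all genes. In 697, 1 of 18 rose and 0 fell (2 rose and 1 fell with the replicate block, 1 and 1 without control replicate 1). That gene was BACH2, a repressor of the same family that is prominent in B cells, from 103 ± 3.19 to 137 ± 3.40 CPM (SD, n = 3; 0.41), and it also rose in KOPN-8 (0.31), where 5 of 18 rose and 2 fell. MAFK, a small MAF partner of NRF2, rose in that line (0.43, adjusted p = 0.00026), with 49.4 ± 1.73 CPM in controls against 66.6 ± 5.77 CPM in the edited clone, and was not called in 697 (-0.20). DPP3, a peptidase that binds KEAP1, rose in KOPN-8 (0.51), as did SYVN1, a ubiquitin ligase of the endoplasmic reticulum (0.41). NFE2L3, a relative of NRF2 with 0 counts in control 697, fell in KOPN-8 from 4.38 ± 0.821 to 0.874 ± 0.210 CPM (-2.34), and TRIM16 fell (-1.36). KEAP1, the NRF2 inhibitor, named after its values were seen, rose by 0.23 in KOPN-8 with a call lost under 7 of 13 alternatives, and BACH1 was called in neither line (-0.07 and -0.06).

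Other NRF2 targets were called about as often as all genes. In 697, 0 of 23 rose and 2 fell (4 fell with the replicate block): PGD, of the pentose phosphate pathway, from 313 ± 8.20 to 250 ± 11.4 CPM (SD, n = 3; -0.32) and IDH1, which makes NADPH, from 81.2 ± 4.30 to 64.4 ± 6.18 CPM (-0.34). In KOPN-8, 1 rose and 5 fell, with a median of -0.11. The shares called were 8.7% in 697 and 26.1% in KOPN-8, against 9.45% and 28.7% of all genes, and in KOPN-8 more of all genes were called lower (17.2%) than higher (11.5%). EPHX1, microsomal epoxide hydrolase, fell from 3.25 ± 0.479 to 0.582 ± 0.173 CPM (-2.44), as did the metallothionein MT1G (-5.29), from 22.8 to 0.584 CPM, and the efflux transporter ABCC4 (-1.35), from 58.3 to 22.9 CPM. ABCC4 lies on chromosome 13, where 102 of 274 genes tested fell and 24 rose in KOPN-8 (median -0.19), and their part in its value was not tested. The ferritin genes FTH1 (-0.02 and 0.17) and FTL (-0.21 and 0.06) were called in neither line. The rise in KOPN-8 was ABCC2 (1.10), named after its values were seen, whose call was lost without control replicate 1 and without edited replicate 2; without the latter 0 of 23 rose. In 697, where SLC7A11 rose, NQO1 was not called in the main test (adjusted p = 0.0784). With the replicate block NQO1 was called higher (adjusted p = 0.0427) and GCLM, another known NRF2 target, lower (adjusted p = 0.0384).

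ATF4, the transcription factor of amino acid shortage, is the other known activator of SLC7A11 and SLC3A2, and its targets were counted for that reason. In 697, 1 of 27 rose and 1 fell (2 rose and 3 fell with the replicate block, 1 and 3 without control replicate 2). That was 7.41% called, against 9.45% of all genes. The gene that fell was the neutral amino acid transporter SLC1A4, from 43.1 ± 1.65 to 33.7 ± 2.99 CPM (SD, n = 3; -0.36). The gene that rose was TRIB3, named after its values were seen, which stayed under 1 CPM in 697. ATF4 itself was called in neither line, with 349 ± 3.76 and 358 ± 18.9 CPM in 697 and 344 ± 23.6 and 391 ± 25.1 CPM in KOPN-8 (0.18, adjusted p = 0.0506), and neither were ASNS (0.52 and 0.23) and CHAC1 (0.81 and 0.82). In edited 697, replicate 3 was the highest of its group for ASNS, CHAC1 and DDIT3, at 6.04, 3.90 and 26.1 CPM, as it was for NQO1. It was also the highest for SLC7A11, by little (22.9, 26.2 and 26.9 CPM). Control replicate 2 was the lowest of its group for SLC7A11, ASNS, CHAC1 and DDIT3 in both lines. CHAC1 was counted in the cysteine supply list. Some other ATF4 targets shared these orders, such as PSAT1 (167, 103 and 150 CPM in control 697), and some did not. DDIT4 was lowest in replicate 3 of both 697 groups (178, 168 and 91.8 CPM in control, 153, 205 and 106 CPM in edited). ATF4 had 346, 348 and 353 CPM in control 697, and PHGDH 302, 329 and 285 CPM in edited 697. Without edited 697 replicate 3 SLC7A11 was still called. The part of ATF4 in the SLC7A11 values was not tested.

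In KOPN-8, 3 ATF4 targets rose and 4 fell of 27 (25.9% called, against 28.7% of all genes), with a median of 0.14. This count moved with the scaling: 7 rose and 4 fell with RLE scaling, 8 and 4 with upper-quartile scaling and 10 and 5 when only the KOPN-8 groups were fitted. It also moved with single libraries: 5 rose and 1 fell when edited replicate 1 was left out, 3 and 2 for control replicate 1 and 4 and 2 for control replicate 3. The cationic amino acid transporter SLC7A3 rose from 20.7 ± 2.64 to 33.9 ± 4.12 CPM (SD, n = 3; 0.71), as did VLDLR, a lipoprotein receptor, from 11.1 ± 2.27 to 21.2 ± 5.13 CPM (0.95). The largest rise was that of SLC6A9, named after its values were seen, from 0.502 ± 0.132 to 1.90 ± 1.00 CPM (1.92, adjusted p = 0.00134). SLC1A4 fell as in 697, from 217 ± 2.56 to 162 ± 8.32 CPM (-0.42), ATF3 fell by 0.62 (lost under 1 of 13 alternatives) and the mitochondrial folate enzyme MTHFD2 by 0.29 (lost under 4).

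Genes of iron handling and of ferroptosis, the death by lipid peroxidation that GPX4 prevents, were called in both directions in each clone. In 697, 1 of 18 rose and 2 fell (1 rose and 3 fell with the block), and in KOPN-8 7 rose and 3 fell. By share 16.7% and 55.6% were called, against 9.45% and 28.7% of all genes. STEAP3, an endosomal iron reductase, rose in 697 from 12.2 ± 1.28 to 19.9 ± 2.42 CPM (SD, n = 3; 0.71) and fell in KOPN-8 (-0.57). LPCAT3, which loads membranes with polyunsaturated lipids, fell in 697 (-0.31, lost under 4 of 13 alternatives) and rose in KOPN-8 from 45.0 ± 2.46 to 59.0 ± 2.98 CPM (0.39), and POR, the P450 reductase, fell in 697 (-0.30, lost under 6 of 13). AIFM2, the glutathione-independent ferroptosis suppressor also called FSP1, rose in KOPN-8 (0.52, a call lost under 8 of 13 alternatives). The transferrin receptor TFRC rose (0.46), with groups that overlapped and a call lost under 5 of 13, and SLC11A2 (-0.29) and CISD1 (-0.35) fell. These counts rested on single libraries: in KOPN-8, leaving out control replicate 1 gave 5 called genes, edited replicate 1 gave 4 and edited replicate 2 gave 5. In 697 leaving out control replicate 2 gave 1.

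GPX4 and TXNRD1 are selenoproteins, and they were set beside a list of genes for selenoprotein synthesis and of other selenoproteins. Of that list 6.25% were called in 697 and 12.5% in KOPN-8, against 9.45% and 28.7% of all genes. Of 16 measured, 1 rose in 697, SEPSECS, which charges the selenocysteine transfer RNA, from 25.8 ± 1.57 to 35.3 ± 3.17 CPM (SD, n = 3; 0.45). In KOPN-8 2 rose and 0 fell (3 and 1 without edited replicate 3): SEPHS2, which makes selenophosphate, from 149 ± 6.75 to 193 ± 21.8 CPM (0.37), and LRP8, a receptor for selenoprotein P (0.39).

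Across all 12 libraries, the 3 genes with the pattern most like that of SLC7A11 were TNFAIP2, PTGER4 and ENDOD1. Likeness was the mean absolute difference between centred log2 CPM profiles, over 11598 genes with at least 5 CPM in some group, and came to 0.44, 0.54 and 0.56. TNFAIP2 went from 5.07 to 13.1 CPM in 697 and from 0.446 to 1.18 CPM in KOPN-8, and PTGER4, a prostaglandin E2 receptor, from 6.72 to 14.3 and from 1.08 to 1.91 CPM. ENDOD1 had 73.2 and 125 CPM in 697 and 16.7 and 21.4 CPM in KOPN-8.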

How the data were processed

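Stranded, poly-A-selected RNA-seq was done on 12 libraries, with 3 per group. The submitters' processing notes name Trimmomatic, STAR, DESeq2 and hg19. Their versions, the read counter and the gene annotation are not stated there. The deposited raw table holds whole-number counts per symbol. The deposited normalized signal is those counts divided by the authors' factor for each library (checked on the values), and served 1 alternative only.

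EdgeR 4.0.16 in R 4.3.3 was run on the raw counts of all libraries together: genes were kept by filterByExpr, scaling was by TMM, and the quasi-likelihood test was robust. It tested 15218 genes, which held at least 99.9% of each library's counts. "Called" means a Benjamini-Hochberg adjusted p under 0.05 across those genes. CPM use TMM-scaled library sizes, and standard errors were derived from the fold change and its F statistic. Floors are 3 counts and cover counting error only. The replicates are named biological but their source is not described, so the p-values reflect only how the libraries of 1 clone and its control varied, which may be technical. They differed by more than sampling noise (chi-square per degree of freedom 2.74 to 9.78).

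Same-numbered 697 libraries deviated together (r = 0.105, 0.207 and 0.104 between deviations from group means, against -0.108 to -0.0076 for unlike numbers). KOPN-8 libraries did so more weakly (0.0508, 0.0362 and 0.0743, against -0.0532 to 0.00754). No cut-off was set for pairing. The main test paired neither line, and the replicate block, which pairs both, is given as an alternative. Exon lengths, overlaps and chromosomes came from GENCODE release 29 (GRCh38), a build other than hg19. Members and lists were chosen with earlier results of these data known. All members were named, and from each list all called genes if at most 6, otherwise the 3 highest and 3 lowest called per line with at least 2 CPM in a group. Uncalled list genes were named after their values were seen. Alternatives were RLE and upper-quartile scaling, DESeq2 1.42.0, no low-count filter, the replicate block, limma 3.58.1 on log2(signal + 1), each library left out, and only the groups compared. Counts per list under these alternatives were added after seeing the data.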

Additional observations from a re-analysis of the deposited data

Results flagged for a closer look

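The change differed between the lines, by the test of the difference itself (edgeR quasi-likelihood, adjusted p under 0.05), for the genes that follow. Most were named because they were called in 1 of the lines, so their number is not read against the share of all genes. Values are KOPN-8 minus 697 on the log2 scale. Among the members they were 0.66 for GCLC and 1.06 for GCLM. In cysteine supply and glutathione reduction they were -2.96 for CTH, -2.49 for DPEP1 and -0.60 for GSR, and -0.49 for MGST3. In the list of thioredoxins, peroxiredoxins, sestrins, catalase and superoxide dismutases they were -1.35 for TXN, -1.13 for SESN1, -0.64 for CAT, -0.56 for SESN3, -0.45 for PRDX1, -0.34 for TXN2 and -0.25 for PRDX3. Around NRF2 they were 0.66 for SYVN1, 0.63 for MAFK, 0.70 for DPP3 and -1.66 for TRIM16. Among other NRF2 targets they were -5.00 for MT1G, -2.23 for EPHX1 and -1.38 for ABCC4. ATF4 targets gave 0.64 for SLC7A3, 0.97 for VLDLR, 2.01 for SLC6A9, -0.72 for ATF3 and -3.85 for TRIB3. The TRIB3 value rests on a total of 1 count in control and 16 in edited 697 libraries. Genes of iron and ferroptosis gave -1.28 for STEAP3, 0.70 for LPCAT3, 0.39 for POR, 1.15 for AIFM2 and -0.46 for SLC11A2. In selenoprotein synthesis the values were -0.52 for SEPSECS and 0.58 for LRP8. SETD2 gave -0.54 and the marker CD79A 0.50.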

How the results depend on the processing

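Of the calls on members, SLC7A11 in 697, GCLC and GCLM in KOPN-8, both differences between lines and all 8 differences between the controls kept their direction and side of the threshold under every alternative run. With the replicate block, 2319 genes and 3 members were called in 697 in place of 1438 and 1, and limma on the deposited normalized table called 2 members there, SLC7A11 and NQO1. The block changed no member's call in 697 but those of GCLM and NQO1. In KOPN-8, where same-numbered libraries deviated together more weakly than in 697, the block made SLC7A11 pass (adjusted p = 0.0162). Dropping the low-count filter did so as well (0.0022). The SLC7A11 difference between the lines also passed under each (0.0311 and 0.0137). Fitting only the groups compared made TXNRD1 pass in KOPN-8 (0.16, adjusted p = 0.0396). Values of uncalled members near 0 changed sign when single libraries were left out. In 697, without control replicate 2, SLC3A2 was -0.02, GCLC -0.04, TXNRD1 -0.04 and NFE2L2 -0.01. Leaving out edited replicate 1 gave -0.06 for GCLC and -0.01 for TXNRD1, edited replicate 2 gave -0.03 for TXNRD1, and edited replicate 3 gave -0.10 for NFE2L2. Over all libraries left out in turn, SLC3A2 ranged from -0.02 to 0.16, GCLC from -0.06 to 0.07, TXNRD1 from -0.04 to 0.04 and NFE2L2 from -0.10 to 0.17. For the difference between lines, GPX4 ranged from -0.04 (no control 697 replicate 2) to 0.16, with -0.03 when edited 697 replicate 3 was left out and -0.02 for edited KOPN-8 replicate 1, and NFE2L2 ranged from -0.24 to 0.00 (no edited 697 replicate 3). The cause of these shifts was not tested. With single libraries left out, 1061 to 1473 genes were called in 697, 3422 to 3756 in KOPN-8, 2440 to 3101 for the difference and 10644 to 10950 between the controls, with 1, 2 to 3, 2 to 3 and 8 members. Depth limits SLC7A11 in KOPN-8 (8 to 63 counts a library) and NQO1 in 697 (17 to 33). No scaling moved the median of all genes by over 0.1.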
